A study of Rattus norvegicus with 56 samples.

Results

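The 5 genes described here, Vim, Nes, Rax, Rarres2 and Col23a1, are known as genes of hypothalamic tanycytes. Each was represented by the transcript cluster (the unit the array measures) that carries its symbol alone, and each had 1 such cluster. They are 5 of the 14557 genes with such a cluster, and all 5 had a value in each of the 56 arrays. Values are log2 intensities, on which a difference of 1 is a 2-fold difference in signal.

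Tanycytes are elongated glial cells that line the floor and lower walls of the third ventricle. Their processes reach into the arcuate nucleus and the median eminence, where they stand between blood, cerebrospinal fluid and hypothalamic neurons. They take up and convert thyroid hormone, sense nutrients and circulating signals, and retain features of neural progenitors. Vim and Nes encode the intermediate filaments vimentin and nestin. Rax encodes a homeodomain transcription factor that marks tanycytes in the adult hypothalamus. Rarres2 encodes the secreted protein chemerin, which is induced by retinoids, and Col23a1 encodes a transmembrane collagen. Vim is not exclusive to tanycytes: ependyma, astrocytes, vessels and meninges express it as well.

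RNA came from the medial hypothalamus, with the paraventricular nucleus, of 3-month-old male Wistar rats, with 1 array per RNA sample. Vagotomized rats (VG) had the subdiaphragmatic vagus cut and sham-operated rats (SH) had the same surgery with the nerves left intact, and both recovered for 30 days. VG and SH rats then received 10 µg lipopolysaccharide (LPS), a bacterial endotoxin, i.p. in 100 µl saline, or saline alone (NaCl), and were killed 120 min later. These groups were VG LPS (n = 5), VG NaCl (n = 3), SH LPS (n = 4) and SH NaCl (n = 4), beside rats with no procedure at all (CNT, n = 5). The other rats got s.c. injections for 10 days of celecoxib (CEL), SC-560 (SC560) or indometacin (INDOM), which inhibit cyclooxygenases, or of saline, and then the same i.p. injection of LPS or NaCl. They formed CEL LPS and CEL NaCl (n = 5 each), SC560 LPS and SC560 NaCl (n = 5 each), INDOM LPS (n = 3), INDOM NaCl (n = 5), saline LPS (n = 4) and saline NaCl (n = 3). CNT rats received no injection, so a difference from CNT covers the surgery and the injection together, and the sham groups share the surgical trauma of the VG groups. No doses of these drugs are stated in the labels or methods, so each drug was set against saline and not against another drug. The sources used here do not tie each array to 1 named rat, so the p-values measure the spread between these samples.

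The array numbers run through the groups from 1 to 40 and begin again with CNT from 41 to 56. What divides these sets is not given in the labels, and the groups were spread unevenly over them: VG NaCl and all CEL and SC560 arrays lay in the first set, all INDOM arrays in the second, and 3 of the 4 SH NaCl arrays in the second. Array medians lay between 4.04 and 4.24 and the correlation between arrays was 0.932 to 0.976. Of 10 tanycyte markers 9 were followed, and Crym was not analysed here. For other cell types the whole marker lists were measured for the meninges (7 of 7), microglia (7 of 7), choroid plexus (5 of 5) and pars tuberalis (3 of 3), and 6 of 10 genes for ciliated ependyma and 4 of 8 for astrocytes. All 5 hypothalamic markers were measured. Their means over the 56 arrays were 6.65 for Six3, 5.99 for Nkx2-1, 5.26 for Otp, 4.44 for Hmx3 and 4.03 for Sim1. Of these 5 genes, 2 lay below the median of the genes with a cluster of their own. In VG LPS, array 46 stood apart in these regional markers, and no other array of that group lay in the second set. The summed intensity of 5 genes of the paraventricular nucleus was 83.6 there and 1003 to 3448 in the other 55 arrays, and that of the 5 hypothalamic genes was 85.3, against 167.7 to 298.4. That of 5 choroid plexus genes was 4033, against 86.2 to 1118, and that of 2 cortex genes 814.1, against 18.5 to 191.1. Most differences that use VG LPS are therefore given with and without array 46, which for the marker lists, pooled tests and correlations was decided after the data were seen. The 3 pars tuberalis genes were uneven over the whole series, with sums of 30.2 to 1376. In bulk tissue, fewer cells of a type and less RNA per cell cannot be told apart.

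Across all 56 arrays Vim averaged 8.78 ± 0.36 (SD), with a lowest array at 7.98 and a highest at 9.61. Nes averaged 3.80 ± 0.39 and ranged over 3.01 to 4.83. Rax averaged 4.01 ± 0.35, between 3.26 and 4.89. Rarres2 averaged 5.62 ± 0.42, between 4.78 and 6.56, and Col23a1 5.11 ± 0.32, between 4.46 and 5.69. Nes and Rax thus lay below the median of the arrays, and the files used hold no detection calls for them. The ratio of highest to lowest array was 3.11-fold for Vim, 3.54-fold for Nes, 3.09-fold for Rax, 3.44-fold for Rarres2 and 2.35-fold for Col23a1. The pooled SD within groups was 0.31 for Vim, 0.41 for Nes, 0.31 for Rax, 0.38 for Rarres2 and 0.30 for Col23a1.

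On RefSeq's rat assembly GRCr8, Vim lies on chromosome 17 (81577261 to 81585746), Nes on chromosome 2 (175735715 to 175745631), Rax on chromosome 18 (61733322 to 61737444), Rarres2 on chromosome 4 (78853450 to 78856652) and Col23a1 on chromosome 10 (36050327 to 36337279). The promoters of Vim and Rarres2 are shown because these were the only members whose levels followed each other across the arrays. Each sequence runs from 250 bases before to 50 bases after the transcript start of RefSeq's promoter table. This start is the gene's outermost bound for Vim, Rax and Col23a1, but it lies 244 bases inside that bound for Rarres2 (at 78856408) and 873 bases inside it for Nes. The letters run 5′ to 3′ on the gene's own strand, and the capitals mark the letters of any of 6 motifs searched on both strands.
Vim, chr17:81577011-81577310, plus strand: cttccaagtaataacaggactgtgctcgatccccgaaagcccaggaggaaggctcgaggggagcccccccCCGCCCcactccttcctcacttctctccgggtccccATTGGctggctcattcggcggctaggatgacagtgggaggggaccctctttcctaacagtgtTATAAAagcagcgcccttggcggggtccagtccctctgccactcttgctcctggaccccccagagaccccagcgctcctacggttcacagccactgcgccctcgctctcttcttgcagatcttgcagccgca
Rarres2, chr4:78856359-78856658, minus strand: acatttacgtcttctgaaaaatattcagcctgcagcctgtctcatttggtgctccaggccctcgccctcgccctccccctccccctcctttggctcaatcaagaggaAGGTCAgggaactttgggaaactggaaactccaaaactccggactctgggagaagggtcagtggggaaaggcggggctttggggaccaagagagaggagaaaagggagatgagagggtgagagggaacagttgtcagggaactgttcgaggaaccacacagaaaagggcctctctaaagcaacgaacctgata

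The Vim promoter held the TATA box TATAAA (found in 14.2% of 33469 RefSeq promoters of this length), a CCAAT box (CCAAT, 37.5%) and a GC box (GGGCGG, 33.1%). They began 82, 144 and 180 bases before this start and did not overlap each other, and the CCAAT and GC boxes lay on the opposite strand. The Rarres2 promoter held the nuclear receptor motif AGGTCA (16.2%), which began 143 bases before its start and thus within the outer bounds of the gene. The GC box was also found in the windows of Nes and Col23a1. Neither the AP-1 site TGANTCA (7.33%) nor the homeodomain site TAATTA (5.36%) was found in the windows of any of the 5 genes. Vim and Rarres2 shared none of the 6 motifs. These matches describe letters in a window and not binding.

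Vim, which encodes vimentin, differed between VG and SH rats in opposite directions with and without LPS. It was the only 1 of the 5 genes with an unadjusted p under 0.05 in both comparisons. Of all clusters 7.97% had one after NaCl and 4.14% after LPS, and the share with one in both was not counted. After NaCl Vim was lower in VG rats, at 8.25 ± 0.24 in VG NaCl and 9.11 ± 0.21 in SH NaCl (SD, n = 3 and 4). After LPS it was higher in VG rats, at 8.91 ± 0.19 in VG LPS and 8.57 ± 0.08 in SH LPS (SD, n = 5 and 4). None of these differences passed an adjusted p of 0.05 over the 36685 transcript clusters. The study picked Vim for qPCR because of its low unadjusted p on these same arrays, so its p-values in these contrasts are not independent evidence. By qPCR, in a larger set of samples that included those of these arrays, the paper reports no response of Vim to the procedures.

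Single arrays showed the pattern without overlap. Vim stood at 7.98, 8.35 and 8.43 in VG NaCl, against 8.87, 9.02, 9.35 and 9.21 in SH NaCl. All 3 VG NaCl arrays were below all 4 SH NaCl arrays. The title of array 13, which held the 7.98, carries an added 2, as do those of arrays 20, 35 and 52. What it stands for is not given in the labels. The difference was -0.86 (95% interval -1.22 to -0.49, a ratio of 0.552; limma p = 8.84e-05, adjusted p = 0.268, two-sided exact permutation p = 0.0286, the smallest that 3 against 4 arrays allow). Of all clusters 0% passed the adjusted threshold in this comparison and 9.25% had groups that did not overlap. With single arrays left out, array 13 among them, the Vim difference ranged over -0.95 to -0.72. In arrays 1 to 40 alone, which hold a single SH NaCl array, the difference was -0.62; there, and below where a group had 1 array, the lone array was assumed to vary like the other groups.

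**Figure D1:**
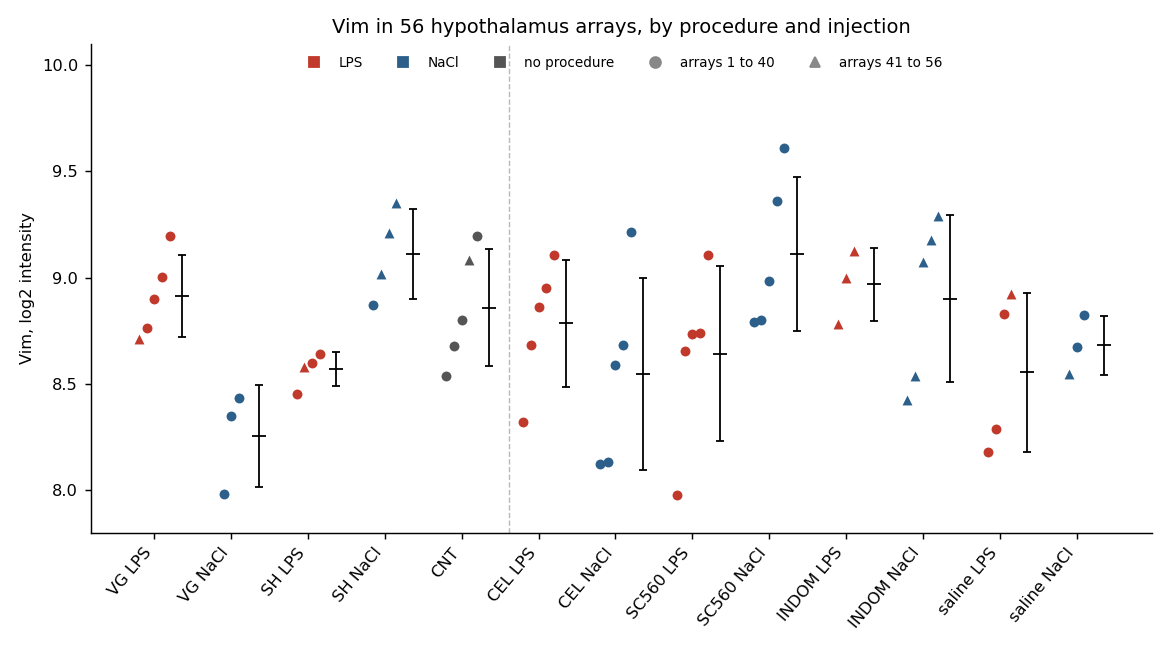
Log2 intensity of Vim (vertical axis) in each of the 56 arrays, by group (horizontal axis); red LPS, blue NaCl, grey CNT, circles arrays 1 to 40, triangles arrays 41 to 56, and bars mean ± SD. VG NaCl lies lowest, with 3 arrays between 7.98 and 8.43, while the SH NaCl arrays lie between 8.87 and 9.35; the dashed line separates the surgery and CNT groups from the drug groups.

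After LPS, Vim stood at 8.90, 9.00, 8.76, 9.19 and 8.71 in VG LPS, against 8.64, 8.60, 8.45 and 8.58 in SH LPS. Each VG LPS array was above each SH LPS array. The difference was 0.35 (95% interval 0.03 to 0.67; limma p = 0.0358, adjusted p = 1, exact permutation p = 0.0159). Here 0% of all clusters passed and 1.09% had groups without overlap. Without array 46, which stood at 8.71, the difference was 0.40 (0.06 to 0.73; adjusted p = 0.975). In arrays 41 to 56 alone, where array 46 is set against 1 SH LPS array, it was 0.13.

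LPS itself went with lower Vim in SH rats, where the 4 SH LPS arrays all lay under the 4 SH NaCl arrays. The difference was -0.54 (95% interval -0.88 to -0.21; limma p = 0.00319, adjusted p = 1, exact permutation p = 0.0286, the smallest possible). Of all clusters 0% passed and 2.5% had groups without overlap. In arrays 1 to 40 alone it was -0.31, again with 1 SH NaCl array.

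In VG rats, LPS went with higher Vim, and the 5 VG LPS arrays all lay over the 3 VG NaCl arrays. The difference was 0.66 (95% interval 0.31 to 1.01; limma p = 0.000806, adjusted p = 0.419, exact permutation p = 0.0179, the smallest possible). Of all clusters 0.00273% passed and 4.04% had groups without overlap. Without array 46 it was 0.71 (0.35 to 1.07; adjusted p = 0.294), and without VG NaCl array 13 it was 0.52. The effect of LPS in VG minus that in SH was 1.20 (95% interval 0.72 to 1.69; adjusted p = 0.267), in a test that 0.00273% of all clusters passed, and 1.25 (0.76 to 1.74; adjusted p = 0.193) without array 46. These contrasts share the same 16 arrays, so they are not separate observations: each of the VG and SH groups enters 3 of them.

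Of the 4 operated groups, VG NaCl alone did not overlap with CNT for Vim. Its 3 arrays, given above, were below all 5 CNT arrays at 9.19, 8.68, 8.54, 8.80 and 9.08. The difference was -0.60 (95% interval -0.95 to -0.25; limma p = 0.00177, adjusted p = 0.562, exact permutation p = 0.0357). Without VG NaCl array 13 it was -0.47. In VG NaCl against CNT 0% of clusters passed and 4.47% had groups without overlap. Marker genes differed there too: all 6 measured genes of ciliated ependyma (median -0.31) and all 7 of the meninges (median -0.49) were lower. The 2 measured thalamus genes were higher (median 0.83). The part of these tissues in the Vim difference from CNT was not tested. Vim in VG LPS was 0.06 from CNT (95% interval -0.25 to 0.36; 0.11 without array 46), in SH NaCl 0.25 (-0.07 to 0.57) and in SH LPS -0.29 (-0.61 to 0.03), and in VG LPS against CNT 0% of clusters passed.

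Marker genes of other cells that express vimentin differed in the same comparisons. In VG NaCl against SH NaCl all 6 measured genes of ciliated ependyma were lower, with a median of -0.82 and a range of -1.17 to -0.11. Among them Cfap43, a cilium and flagellum protein, differed by -1.17 (adjusted p = 0.268) and Dnali1, an axonemal dynein chain, by -0.93 (adjusted p = 0.268), and 0 of the 6 passed the adjusted test. The mean deviation of these genes from their 56-array mean ran over -0.49 to -0.03 in VG NaCl, against 0.18 to 0.90 in SH NaCl. The 4 astrocyte genes were lower too (median -0.23), and the 2 thalamus genes were higher (median 0.36). The meninges list had 2 genes above and 5 below 0 (median -0.22), and 9 of 10 other tanycyte genes (median -0.16) and all 7 microglia genes (median -0.25) were below 0. Over all clusters the median was 0.00 and 50.3% lay above 0. The part of these cells in the difference of Vim was not tested.

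With LPS in VG rats several marker lists differed. The meninges genes were higher in both comparisons. Against SH LPS all 7 were higher in VG LPS, with a median of 0.78 and a range of 0.38 to 1.21 (median 0.76 without array 46). Against VG NaCl all 7 were higher as well, with a median of 0.61 (0.59 without array 46), led by Omd, a keratan sulphate proteoglycan, at 2.10 (adjusted p = 0.105) and Ogn, another small proteoglycan, at 1.17. Without array 46 Omd differed by 1.89 and Ogn by 1.03. None of the 7 passed the adjusted test. The summed intensity of the 7 genes ran over 292.0 to 589.4 in VG LPS, 161.0 to 339.0 in VG NaCl, 214.6 to 309.1 in SH LPS and 203.8 to 374.1 in SH NaCl. The ependymal genes differed by a median of -0.05 in VG LPS against SH LPS and of 0.26 in VG LPS against VG NaCl, where all 6 were higher (-0.02 and 0.44 without array 46). In SH LPS against SH NaCl all 6 ependymal genes were lower, with a median of -0.39, while the meninges list had a median of -0.11. The 2 thalamus genes had a median of -0.66 in VG LPS against SH LPS and of -1.27 in VG LPS against VG NaCl (-0.61 and -1.23 without array 46), with sums of 45.8 to 144.9 in VG LPS against 166.5 to 263.3 in VG NaCl.

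Other lists had medians on the other side of 0 without array 46. The choroid plexus genes had a median of 0.75 in VG LPS against SH LPS and of 0.69 in VG LPS against VG NaCl, and of -0.10 and -0.09 without array 46. The paraventricular genes had medians of -0.70 and -0.58 there, and of 0.05 and 0.24 without it. For the pars tuberalis the medians were -0.86 and -0.54, and 0.08 and 0.38 without it. For Vim the same differences were 0.35 and 0.66, and 0.40 and 0.71 without it. The part of meninges, ependyma or any other region in the Vim differences was not tested.

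**Figure D2:**
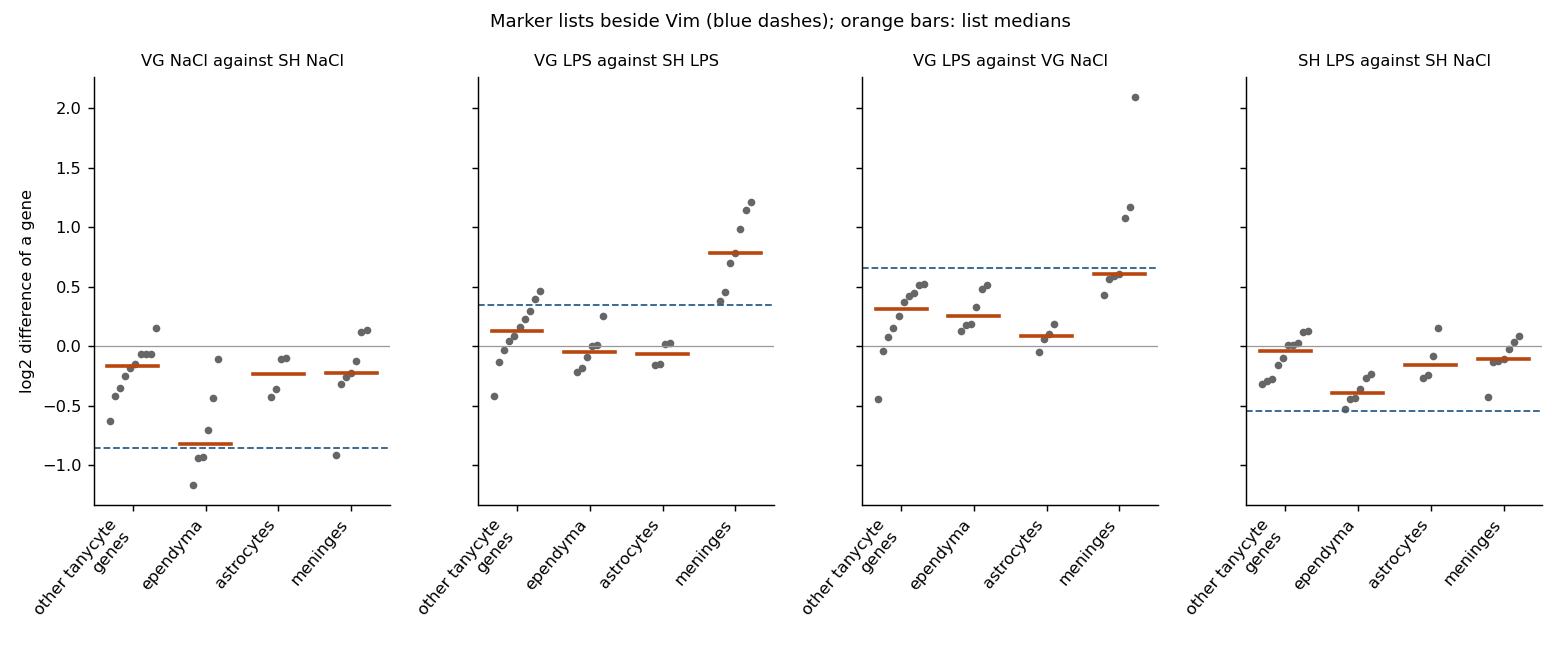
Log2 difference (vertical axis) of each measured gene of 4 marker lists (horizontal axis) in 4 comparisons, with orange bars for list medians and a blue dashed line for Vim. In VG NaCl against SH NaCl Vim lies at -0.86, the ependyma median at -0.82 and the meninges median at -0.22; in VG LPS against SH LPS they lie at 0.35, -0.05 and 0.78, in VG LPS against VG NaCl at 0.66, 0.26 and 0.61, and in SH LPS against SH NaCl at -0.54, -0.39 and -0.11.

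For nestin the operated groups and CNT all overlapped when every array was kept. Nes stood at 3.94, 4.19, 4.28, 3.82 and 3.33 in VG LPS and at 3.68, 4.13 and 3.76 in VG NaCl, against 3.64, 3.57, 3.60 and 3.68 in SH LPS and 3.50, 3.77, 4.03 and 4.02 in SH NaCl. The means were 3.91 ± 0.38 in VG LPS, 3.85 ± 0.24 in VG NaCl, 3.62 ± 0.05 in SH LPS, 3.83 ± 0.25 in SH NaCl and 3.90 ± 0.26 in CNT, and the SH LPS arrays were the closest together. Its differences in the 9 contrasts of these 21 arrays ran over -0.28 to 0.29, and 0 had an unadjusted p under 0.05, where 3.42% to 7.97% of all clusters had one. Array 46 held the lowest of the 5 VG LPS values, 3.33. Without it the VG LPS arrays lay at 3.82 to 4.28, all above the SH LPS arrays, as for 2.54% of all clusters, and the difference of VG LPS from SH LPS was 0.44 (95% interval 0.10 to 0.78; limma adjusted p = 0.942, with 0 clusters called), against 0.29 with it. In VG NaCl against SH NaCl the interval of the difference was -0.41 to 0.46.

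Rax, the transcription factor, was lowest in CNT among these groups. It stood at 4.08, 4.36, 4.89 and 4.22 in SH NaCl, against 3.97, 3.54, 3.74, 4.15 and 3.99 in CNT. Of the SH NaCl arrays 3 lay above every CNT array and 1 did not. The difference was 0.51 (95% interval 0.09 to 0.92; limma p = 0.0186, adjusted p = 0.982, exact permutation p = 0.0238). In arrays 1 to 40 alone it was 0.23, with 1 SH NaCl array. In SH NaCl against CNT 0% of clusters passed and 2.3% had groups without overlap. VG LPS (4.20 ± 0.29), VG NaCl (4.15 ± 0.08) and SH LPS (4.15 ± 0.39) lay 0.27 to 0.32 above CNT (3.88 ± 0.24), at unadjusted p of 0.105 to 0.226. Without array 46 VG LPS lay 0.39 above CNT (95% interval -0.03 to 0.80). SH NaCl also exceeded CNT in all 6 genes of ciliated ependyma, with a median of 0.37 and a summed intensity of 251.7 to 399.7 in SH NaCl against 176.5 to 260.2 in CNT, and their part in the Rax difference was not tested. Between VG and SH, Rax differed by -0.24 after NaCl (95% interval -0.71 to 0.23) and by 0.05 after LPS (-0.37 to 0.46), or 0.12 (-0.32 to 0.55) without array 46.

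Rarres2, which encodes chemerin, was lower than in CNT in 3 of the 4 operated groups. The VG NaCl arrays, at 5.26, 5.21 and 5.49, all lay below the CNT arrays, at 6.29, 5.65, 5.63, 5.63 and 5.87, with a difference of -0.49 (limma p = 0.0355, adjusted p = 0.801, exact permutation p = 0.0179). The SH NaCl arrays, at 5.60, 5.18, 5.32 and 5.44, all lay below the CNT arrays too, with a difference of -0.43 (limma p = 0.0455, adjusted p = 0.982, exact permutation p = 0.00794). So did the SH LPS arrays, at 5.55, 5.37, 5.55 and 5.10, with a difference of -0.42 (limma p = 0.0495, adjusted p = 1, exact permutation p = 0.00794), and in SH LPS against CNT 0% of clusters passed and 1.29% had groups without overlap. In VG NaCl against CNT 4.47% of all clusters had groups without overlap, and in SH NaCl against CNT 2.3%, and 0% passed in either. The 3 comparisons share the 5 CNT arrays. In 1 array set alone 2 of them moved: SH NaCl against CNT was -0.20 in arrays 1 to 40 alone, and SH LPS against CNT was -0.78 in arrays 41 to 56 alone, with 1 array of each group.

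VG LPS was the exception, with Rarres2 at 4.99, 6.05, 5.83, 6.15 and 5.93. Of these arrays 4 lay above all VG NaCl arrays and 1 lay below them. The difference from VG NaCl was 0.47 (95% interval 0.01 to 0.93; limma p = 0.0442, adjusted p = 0.696, exact permutation p = 0.143), and it was 0.67 without the lowest array, number 9, and 0.43 (-0.05 to 0.92) without array 46. The difference from CNT was -0.02 (95% interval -0.42 to 0.37), and from SH LPS 0.40 (-0.02 to 0.82). Without array 46 these were -0.06 and 0.36.

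The meninges genes differed from CNT in the same comparisons. All 7 were lower than CNT in VG NaCl (median -0.49), SH NaCl (median -0.41) and SH LPS (median -0.53). Their summed intensity of 161.0 to 339.0 in VG NaCl, 203.8 to 374.1 in SH NaCl and 214.6 to 309.1 in SH LPS stood against 284.3 to 662.8 in CNT. In VG LPS all 7 were above CNT, with a median of 0.15 (0.09 without array 46). The part of these cells in the Rarres2 differences was not tested. Of the 8 measured genes of chemerin and retinoid signalling, 0 passed the adjusted test in any of the 20 comparisons. Rbp4, the plasma retinol carrier, was higher by 0.63 in VG LPS against VG NaCl (adjusted p = 0.605) and by 0.56 in VG LPS against SH LPS (adjusted p = 1). Aldh1a2, which makes retinoic acid and is expressed in meninges, was higher by 1.04 in VG LPS against SH LPS (adjusted p = 1) and by 0.73 in VG LPS against VG NaCl (adjusted p = 0.792), and differed by -0.02 in VG NaCl against SH NaCl. Aldh1a1, another such enzyme, differed by -0.66 in VG NaCl against SH NaCl (adjusted p = 0.511) and by 0.69 in VG LPS against VG NaCl (adjusted p = 0.566). Without array 46 the differences of VG LPS from SH LPS and from VG NaCl were 0.43 and 0.50 for Rbp4 and 1.06 and 0.76 for Aldh1a2, and Aldh1a1 differed by 0.79 from VG NaCl. The chemerin receptor gene Cmklr1, named here for its role after its values were seen, differed by -0.05 in VG NaCl against SH NaCl and by -0.24 in VG LPS against VG NaCl (-0.13 without array 46).

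Col23a1 was higher in VG LPS than in SH LPS. It stood at 5.21, 5.34, 4.95, 5.57 and 5.65 in VG LPS, against 5.06, 4.57, 5.01 and 4.95 in SH LPS. Of the VG LPS arrays 4 lay above all SH LPS arrays, while the lowest fell among them. The difference was 0.44 (95% interval 0.00 to 0.89; limma p = 0.0496, adjusted p = 1, exact permutation p = 0.0476), and 0.69 in arrays 41 to 56 alone, with 1 array of each group. Array 46 held the highest VG LPS value, and without it the difference was 0.37 (-0.10 to 0.83; adjusted p = 0.999). Its LPS effect in VG minus that in SH was 0.68 (95% interval 0.01 to 1.35; adjusted p = 0.924), 1.07 in arrays 1 to 40 alone and 0.60 (-0.08 to 1.28) without array 46. The part of the meninges genes, all 7 of which were higher in VG LPS than in SH LPS, was not tested for Col23a1 either. After NaCl, Col23a1 differed by -0.23 between VG and SH (-0.74 to 0.27), with VG NaCl arrays spread over 4.56 to 5.40.

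**Figure D3:**
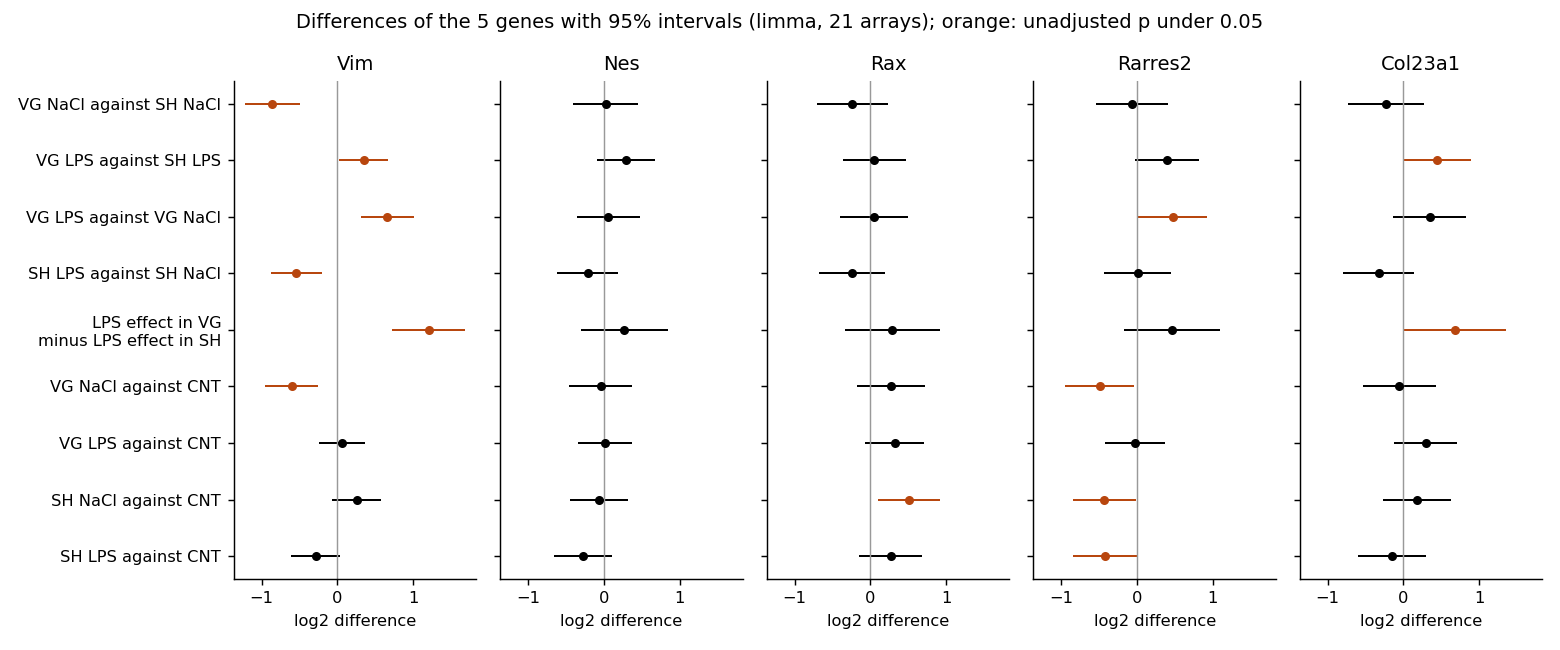
Differences on the log2 scale (horizontal axes) with 95% intervals for the 5 genes in the 9 contrasts of the 21 VG, SH and CNT arrays; orange marks an unadjusted p under 0.05. Vim has the interval farthest from 0, for the difference of the LPS effects at 1.20, and for Nes each of the 9 intervals includes 0.

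Col23a1 also stood apart in the drug groups, where saline NaCl had the lowest mean of the 13 groups (4.60 ± 0.12). CEL NaCl, at 5.36, 4.84, 5.49, 5.08 and 4.85, was higher than saline NaCl, at 4.67, 4.66 and 4.46, by 0.53 (95% interval 0.10 to 0.95; limma p = 0.0161, adjusted p = 1, exact permutation p = 0.0357). SC560 NaCl, at 4.98, 4.80, 5.59, 5.16 and 4.94, was higher by 0.50 (0.08 to 0.92; limma p = 0.0219, adjusted p = 1, exact permutation p = 0.0536). INDOM NaCl, at 5.28, 5.22, 5.21, 5.69 and 5.50, was higher by 0.78 (0.36 to 1.20; limma p = 0.000669, adjusted p = 0.748, exact permutation p = 0.0179). Each of these 15 arrays lay above all 3 saline NaCl arrays.

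The 3 comparisons share the saline NaCl arrays, so they are not 3 separate observations. In each of them 0% of clusters passed the adjusted threshold, and the groups did not overlap for 3.59% of clusters with CEL, 3.93% with SC560 and 3.29% with INDOM. After LPS the drugs differed from saline by 0.29 with CEL (95% interval -0.10 to 0.67), 0.04 with SC560 (-0.35 to 0.43) and 0.02 with INDOM (-0.42 to 0.46), where 0%, 0% and 0.00818% of clusters passed. The INDOM arrays all lie in the second set and the CEL and SC560 arrays in the first, and the drug comparisons differ in this too. The 3 genes of the pars tuberalis, a pituitary tissue that lies against the median eminence, were higher by a median of 2.17 in INDOM NaCl and 1.94 in SC560 NaCl and differed by a median of -0.27 in CEL NaCl, each against saline NaCl. Their summed intensity ran over 645.8 to 1376 in INDOM NaCl, 664.6 to 1324 in SC560 NaCl, 58.6 to 271.1 in CEL NaCl and 72.5 to 322.4 in saline NaCl, and their part in the Col23a1 differences was not tested.

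The drug groups gave Vim and Nes single differences after LPS with SC560. Vim stood at 9.11, 8.74, 7.98, 8.65 and 8.74 in SC560 LPS, against 9.36, 8.99, 9.61, 8.80 and 8.79 in SC560 NaCl. The difference was -0.47 (limma p = 0.045, adjusted p = 1, exact permutation p = 0.0952), and -0.30 without the lowest SC560 LPS array, number 33. Nes averaged 3.50 ± 0.38 in SC560 LPS and 4.10 ± 0.62 in SC560 NaCl (SD, n = 5 each), a difference of -0.60 (limma p = 0.0442, adjusted p = 1, exact permutation p = 0.111). Without SC560 NaCl array 38, which held the highest Nes value of the series at 4.83, it was -0.42. The groups overlapped for both genes, and 0% of clusters passed. All 7 meninges genes were lower in SC560 LPS (median -0.72), with a summed intensity of 176.3 to 767.7 in SC560 LPS and 443.2 to 935.2 in SC560 NaCl, and the 3 pars tuberalis genes were lower too (median -1.29). Their part was not tested.

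With CEL, INDOM and saline pretreatment, 0 of the 5 genes had an unadjusted p under 0.05 for LPS against NaCl, where 5.57%, 5.42% and 4.05% of all clusters had one. Col23a1 was lower in INDOM LPS, at 5.20, 4.88 and 5.05, than in INDOM NaCl, and the groups did not overlap, as for 2.39% of clusters. That difference was -0.34 (limma p = 0.115, adjusted p = 0.931, exact permutation p = 0.0893), where 0.00818% of clusters passed. In CEL LPS against CEL NaCl the 5 differences ran over -0.27 to 0.29 and in saline LPS against saline NaCl over -0.38 to 0.43, and 0% of clusters passed in both.

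Over all 6 pretreatments together, LPS against NaCl (26 and 25 arrays) gave differences of -0.04 for Vim (95% interval -0.25 to 0.17), -0.15 for Nes (-0.39 to 0.08), -0.17 for Rax (-0.35 to 0.00), -0.03 for Rarres2 (-0.25 to 0.20) and 0.04 for Col23a1 (-0.14 to 0.22). None passed, against 0.395% of all clusters, and Rax had the lowest unadjusted p at 0.0523. Without array 46 the 5 differences were -0.17 to 0.02. Of the 10 measured other tanycyte genes 5 were above and 5 below 0 (6 above without array 46) and 0 passed. The largest difference was that of Slco1c1, a transporter of thyroid hormone, at -0.38 (adjusted p = 0.078), which brain endothelium expresses too. Dio2, the deiodinase that activates thyroid hormone, differed by 0.29 (adjusted p = 0.984), and Adm, the peptide adrenomedullin, by 0.16 (adjusted p = 0.987).

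Tests over several groups at once were led by Rax for the pretreatments and by Vim otherwise. Over the 6 pretreatments, with injection in the model, F was 3.62 for Rax (adjusted p = 0.442) and 2.70 for Rarres2 (adjusted p = 0.552), and 0.00545% of clusters passed. Without the SC560 rats, F for Rarres2 was 0.56. For the dependence of the LPS effect on pretreatment, F was 4.23 for Vim (adjusted p = 1), with 0% of clusters called, and 2.36 without the VG rats. Over the 13 groups F was 2.47 for Vim, 2.20 for Rarres2 and 2.03 for Rax, at adjusted p of 0.616 to 0.734, and 0.0709% of clusters passed. Nes and Col23a1 had an unadjusted p of 0.053 or more in the 3 tests, in which 8.46%, 4.3% and 6.72% of clusters lay under 0.05. Without array 46 F was 3.66 for Rax in the first of these tests, and for Vim 4.29 in the second and 2.49 in the third.

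In order of group means, Vim was highest in SH NaCl (9.11) and SC560 NaCl (9.11) and lowest in VG NaCl (8.25), below CEL NaCl (8.55). Nes ranged over 4.10 in SC560 NaCl to 3.50 in SC560 LPS. Rax was highest in SH NaCl (4.39) and INDOM NaCl (4.23) and lowest in CEL LPS (3.70) and SC560 LPS (3.73). Rarres2 was highest in SC560 NaCl (6.19 ± 0.33) and lowest in VG NaCl (5.32 ± 0.15). Col23a1 was highest in INDOM NaCl (5.38 ± 0.21) and lowest in saline NaCl. Neighbours in this order were closer than the larger of their SDs in 12 of 12 pairs for Vim, Nes, Rax and Rarres2, and in 11 of 12 for Col23a1, where saline NaCl was the exception.

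**Figure D4:**
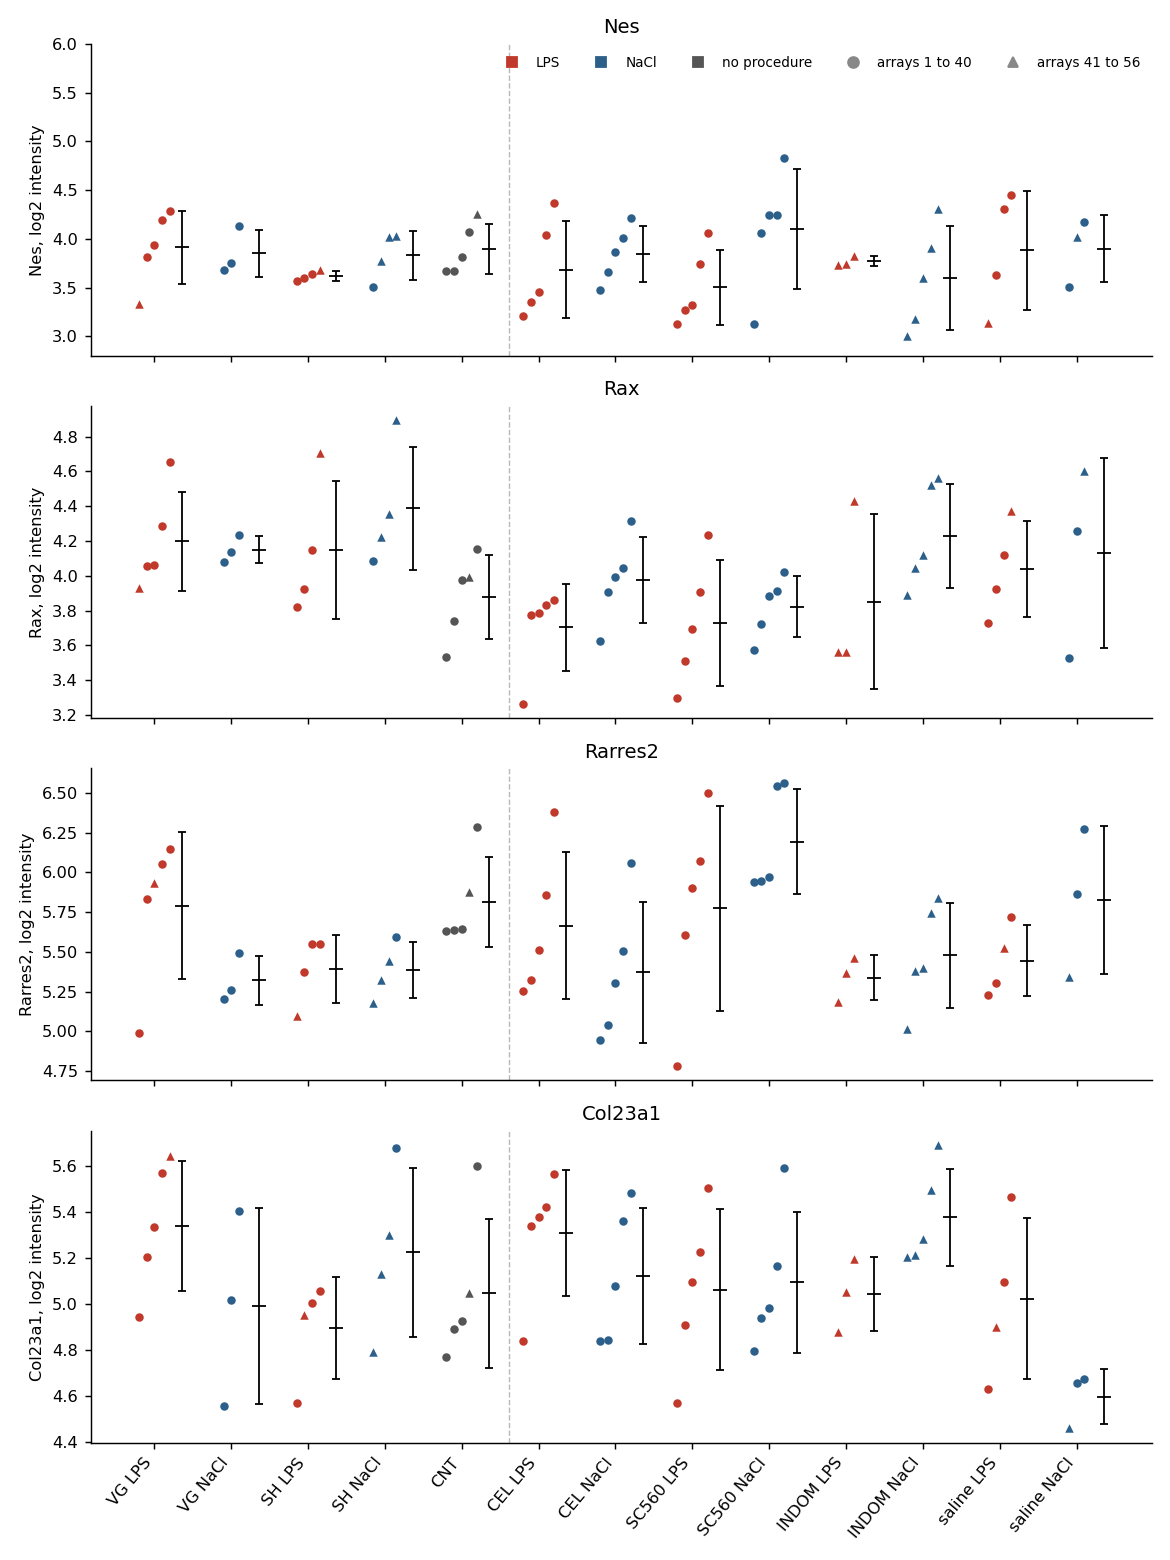
Log2 intensity (vertical axes) of Nes, Rax, Rarres2 and Col23a1 in each of the 56 arrays by group (horizontal axis), with colours, symbols and mean ± SD bars for injection and array set. Col23a1 is lowest in saline NaCl, with 3 arrays at 4.46 to 4.67, and Rarres2 has 1 VG LPS array at 4.99 below the other 4.

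Of the 10 pairs of these genes 1 was correlated across the 56 arrays after adjustment, Vim with Rarres2, at Pearson r = 0.61 (permutation p = 1e-05, adjusted p = 1e-04) and Spearman rho = 0.54 (permutation p = 4e-05, adjusted p = 4e-04). That p for r is the smallest that 100000 permutations can give. The r was 0.53 without the 2 arrays farthest from the median of Vim, 0.69 with group means removed, 0.79 in arrays 1 to 40, 0.42 in arrays 41 to 56 and 0.61 without array 46. The other 9 pairs had r between -0.17 and 0.32. Rax had r = 0.17 with Vim, 0.09 with Nes, -0.17 with Rarres2 and 0.04 with Col23a1. The lowest adjusted p among these 9 pairs was 0.0835, for Vim with Nes.

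The genes most like each member were found by Pearson r over the 56 arrays among genes with a mean above the median of single-symbol genes (7277 or 7278 genes). For Vim they were Dcn (0.74), Prelp (0.72), Faxdc2 (0.69), S100a11 (0.69) and Tagln (0.68), and for Rarres2 they were Rbp4 (0.81), Bgn (0.81), Ogn (0.79), Colec12 (0.79) and Dcn (0.79). Dcn, Prelp, Bgn and Ogn encode small proteoglycans of connective tissue, and Dcn and Ogn stood in the meninges list. Nes had Prrx1 (0.53), Arhgef26 (0.48), S100a16 (0.47), Caskin2 (0.46) and Vsir (0.45). Rax had C7h22orf23 (0.49), Id4 (0.48), Hey2 (0.48), Rftn2 (0.47) and Ddx23 (0.47). Col23a1 had Pear1 (0.50), Clcn2 (0.47), Zbtb43 (0.43), Icam5 (0.39) and Uxs1 (0.39). Each list holds the 5 highest r of all genes compared, so the values are raised by that choice. The r that such a choice alone would give was not computed. The values were lower for Nes, Rax and Col23a1 (0.39 to 0.53) than for Vim and Rarres2 (0.68 to 0.81). Without array 46 each of these 25 values moved by 0.0653 or less.

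Each member was also set against the mean of 8 marker lists, 40 relations in all, chosen after the values were seen. Rarres2 followed the 7 meninges genes at r = 0.85 (permutation p = 1e-05, adjusted p = 2e-04; rho = 0.80, adjusted p = 2e-04), and at 0.82 without the 2 farthest arrays, 0.85 in arrays 1 to 40 and 0.81 in arrays 41 to 56. Vim followed them at r = 0.66 (adjusted p = 2e-04; rho = 0.62, adjusted p = 2e-04), at 0.87 in arrays 1 to 40 but 0.35 in arrays 41 to 56, or 0.50 there without array 46. Over the other 55 arrays r was 0.85 for Rarres2 and 0.67 for Vim. With the 10 other tanycyte genes Rarres2 had r = 0.26 (adjusted p = 0.129). That r was 0.44 in arrays 1 to 40 and -0.07 in arrays 41 to 56. Vim had r = 0.52 with the 10 other tanycyte genes (adjusted p = 4e-04), 0.47 with ciliated ependyma (adjusted p = 0.00187) and 0.47 with astrocytes (adjusted p = 0.00194). In all, 7 of the 8 lists were correlated with Vim, the exception being endothelium and pericytes at r = 0.31 (adjusted p = 0.0778). Rax followed ciliated ependyma at r = 0.43 (adjusted p = 0.00385; rho = 0.35, adjusted p = 0.0334) and the other tanycyte genes at 0.28 (adjusted p = 0.106). For Nes and Col23a1, no Pearson correlation with any of the 8 lists passed (r between -0.13 and 0.31), while the rank correlations of Nes with the meninges (rho = 0.33) and with endothelium and pericytes (rho = 0.33) had an adjusted p of 0.0488. With the other tanycyte genes r was -0.03 for Nes and 0.03 for Col23a1.

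**Figure D5:**
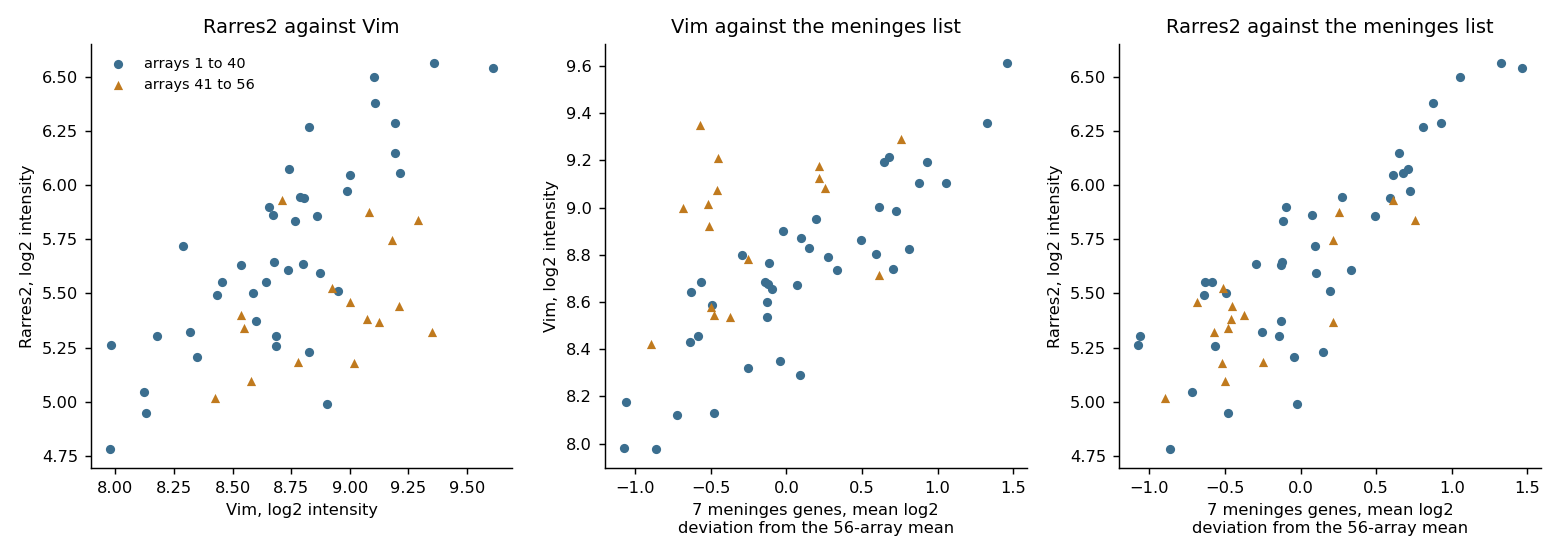
Log2 intensities of Rarres2 against Vim (left), and of Vim (middle) and Rarres2 (right) against the mean log2 deviation of 7 meninges genes; each point is 1 of 56 arrays, circles arrays 1 to 40 and triangles arrays 41 to 56. The right panel is the tightest, at r = 0.85.

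Of the other tanycyte genes, 10 of 15 were measured and 0 passed the adjusted test in any of the 20 comparisons of groups. In VG LPS against VG NaCl 8 were above and 2 below 0 (median 0.31; without array 46 all 10 above, median 0.18), led by Frzb, an inhibitor of Wnt signalling, at 0.52 (adjusted p = 0.633). Gpr50, an orphan receptor of the melatonin receptor family, stood at 0.51 (adjusted p = 0.833) and Adm at 0.45 (adjusted p = 0.667). Without array 46 Gpr50 led at 0.85, with Frzb at 0.49 and Adm at 0.38. In VG LPS against SH LPS 7 were above 0 (median 0.13; without array 46 the number was 9 and the median 0.21), with Lhx2, a transcription factor of tanycytes, at 0.46 (adjusted p = 1) and 0.24 without array 46. Gpr50 differed by -0.63 in VG NaCl against SH NaCl (adjusted p = 0.754). Of the 6 other intermediate filament genes measured, 0 passed in the 20 comparisons. In VG NaCl against SH NaCl 3 were above and 3 below 0, with Nefm, a neurofilament, at 0.36 (adjusted p = 0.787) and Prph, peripherin, at -0.21 (adjusted p = 0.924).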

How the data were processed

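Total RNA of the medial hypothalamus was hybridised to Affymetrix Rat Gene 2.1 ST arrays. Per the labels, the values came from Affymetrix Expression Console with RMA, whose versions are not given, and the study's methods name RMA background correction, quantile normalization and median polish. The deposited table holds 1 linear intensity per transcript cluster (36685) and array (56), and log2 of these deposited intensities was used. RMA draws arrays to 1 distribution, so a shift of all genes in an array is removed, and the number of arrays limits the precision. Of the clusters 14824 carried 1 symbol, 829 several and 21032 none. For each gene the brightest single-symbol cluster was kept.

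Groups came from the labels. limma 3.58.1 in R 4.3.3 was fitted to all clusters, with 1 fit of the 21 VG, SH and CNT arrays, 1 of the 35 drug arrays and 1 of 51 arrays with 6 pretreatments, and p-values were adjusted by Benjamini-Hochberg over all clusters, with a threshold of 0.05. Exact two-sided permutation p-values of single pairs of groups are not adjusted (90 pairs). Correlations used 100000 permutations, adjusted over 10 pairs of members or over 40 relations with marker lists. From each list up to 4 genes with the largest difference were named. The fits were also run on simulated data with known changes, to check the code. Those data held no differences between array sets or in the tissue taken, so they do not bear on either. The members and lists were chosen with earlier results of these data known. Promoters came from RefSeq (GRCr8, 5 of 5 genes matched by symbol). Alternatives included the moderation of variance, the arrays in the fit, a filter on dim clusters, a second normalization, array set as a block, array weights, and leaving out arrays, among them VG LPS array 46.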

Additional observations from a re-analysis of the deposited data

Results flagged for a closer look

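Of 50 sets of values of 1 gene in 1 group of 4 or more arrays, 2 held an array far from the others, where chance alone marks some sets in this way (about 1 in 20 for a normal distribution). Rax in CEL LPS array 23 was 3.26, while the other 4 CEL LPS arrays lay between 3.77 and 3.86. Rarres2 in VG LPS array 9 was 4.99, while the other 4 VG LPS arrays lay between 5.83 and 6.15.

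The effect of LPS differed between VG and SH rats at an unadjusted limma p under 0.05 for 2 genes, where 5.37% of all clusters had one. For Vim the effect in VG minus that in SH was 1.20 (adjusted p = 0.267; 1.25 without VG LPS array 46), with Vim higher after LPS in VG and lower after LPS in SH. For Col23a1 it was 0.68 (adjusted p = 0.924; 0.60 without that array). Neither passed after adjustment over all clusters.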

How the results depend on the processing

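The number of the 5 genes called was 0 in all 414 recomputed counts. For 25 differences and F values there were 434 alternative values: none was called, and the differences kept their direction. Sizes were less stable. Vim in VG LPS against SH LPS was 0.13 in arrays 41 to 56 alone (0.35 as reported). In SH LPS against SH NaCl it was -0.31 in arrays 1 to 40 alone (-0.54 as reported). Each of these 2 uses a group of 1 array. Vim in VG NaCl against SH NaCl ranged over -0.95 to -0.62 (adjusted p 0.148 to 0.95), and -0.95 to -0.72 with single arrays left out. The difference of its LPS effects ranged over 1.02 to 1.29 (adjusted p 0.189 to 0.884). With array set as a block, F for Rarres2 over the pretreatments was 1.82. Calls over all clusters moved more: 95 to 174 in the pooled LPS comparison (145 as reported), 2 to 44 over the 13 groups (26), 0 to 18 over the pretreatments (2), 0 to 14 in INDOM LPS against saline LPS (3; 14 without INDOM LPS array 51), 0 to 10 in INDOM LPS against INDOM NaCl (3; 10 without INDOM NaCl array 53), 0 to 29 in SC560 LPS against SC560 NaCl (0; 29 without SC560 NaCl array 36), 0 to 9 in CEL LPS against CEL NaCl (0), and 0 or 1 in VG LPS against VG NaCl and in the difference of the LPS effects (1 each). In 5 other comparisons with 0 calls, 1 or 2 clusters were called under some alternative. The cause was not tested. Averaging a gene's clusters gave no other value, since each gene had 1, Nes and Rax were not among clusters above the median, and a block for array set could not be fitted where set and group coincide. No paired analysis was possible because array numbers are unique and no groups share replicate numbers. Small groups (3 to 5 arrays) and dim signals for Nes and Rax limit what could be detected.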

Other observations

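Markers of endothelium gave the single adjusted call among the marker genes: over the pooled comparison of LPS with NaCl, Cldn5, a tight junction protein of brain endothelium, was lower after LPS, with a difference of -0.92 (limma adjusted p = 0.0106). Slco1a4, a transporter of the blood-brain barrier, differed by -0.66 (adjusted p = 0.0508). Without VG LPS array 46 the difference of Cldn5 was -0.87 (adjusted p = 0.0147), and that of Slco1a4 -0.64 (adjusted p = 0.0769). Over 20 comparisons, 26 of 140 values of the 7 meninges genes (18.6%) had an unadjusted p under 0.05. So had 7 of 40 values of the 2 thalamus genes (17.5%) and 18 of 120 of the 6 ependymal genes (15%). The 9 tanycyte markers (22 of 180, 12.2%) include the 5 genes described here, which were chosen with earlier results of these data known. For the 10 other tanycyte genes it was 12 of 200 (6%), and for choroid plexus, oligodendrocytes and striatum 0%. In each comparison 3.42% to 7.97% of all clusters had one. The comparisons share arrays, so these counts are not of separate observations.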
